A study of Mus musculus with 6 samples.

Results

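A set of 10 genes of the TGF-β family was examined in C2C12 cells, a mouse line of skeletal myoblasts, with and without a disrupted *Mstn* gene. They were the ligand genes *Tgfb1*, *Tgfb2*, *Tgfb3*, *Inhba*, *Inhbb*, *Gdf11*, *Gdf15* and *Bmp4* and the antagonist genes *Fst* and *Fstl3*, chosen by symbol. All 10 were among the 14548 genes of the deposited tables. RNA-seq was available for 3 WT libraries and 3 MSTN-KO libraries, and the values are FPKM, the fragments on a gene divided by its length and by the size of its library, so levels can be compared between genes. All libraries came from C2C12 cells labelled as myoblasts of skeletal muscle, with no treatment in the labels, and the medium described in the study's methods held fetal bovine serum. The MSTN-KO cells carry a CRISPR/Cas9 disruption of exon 3 of *Mstn* and are 1 line, C11. The strain label reads C11 for WT samples as well, so groups follow the genotype label. Nothing says that the replicates were separate cultures, so the p-values measure only the spread between these libraries, which may be technical. A difference between genotypes cannot be told apart from a difference between this line and its WT counterpart.

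TGF-β family ligands are secreted dimers that bind paired type I and type II receptor kinases. The receptors then phosphorylate SMAD proteins, SMAD2 and SMAD3 for TGF-β, activin, GDF11 and myostatin, and SMAD1, SMAD5 and SMAD9 for most BMPs. Myostatin, the product of *Mstn*, restrains muscle growth through the activin type II receptors. Follistatin (*Fst*) and follistatin-like 3 (*Fstl3*) bind activins, GDF11 and myostatin and keep them from these receptors, and in muscle they are known as promoters of growth.

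*Mstn* was near 0 FPKM in all 6 libraries, so its RNA could not check the labels. Low values taken as single fragments, within a fixed window, gave a depth of about 15.9 to 20.1 (in units of 1000000 fragments) per library. The myoblast markers of the labelled cell type were present, with *Myod1* between 90.8 and 167 FPKM and *Des* between 325 and 807 FPKM, although 4 of their 6 tested genes were lower and 1 (*Pax7*) was higher in MSTN-KO. Of the marker lists, that of differentiated muscle had the largest median difference, -3.00 on the log2 scale. Their summed level was 1266, 1303 and 391 FPKM in WT replicates 1, 2 and 3, but 60.6, 83.4 and 104 FPKM for MSTN-KO, and all 13 tested genes of that list were lower in MSTN-KO. Fewer differentiated cells and less RNA per cell cannot be told apart in bulk samples, and the part of this difference in the values below was not tested. Markers of other cell types were low: endothelial markers summed to at most 0.167 FPKM, blood cell markers to at most 2.39 FPKM and fibroblast markers to at most 4.56 FPKM in any library, and the epithelial sum of 24.7 to 52.1 FPKM was nearly all *Krt14*.

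Of the 10 members, *Inhbb* and *Gdf15* rose in MSTN-KO cells, and *Tgfb2*, *Inhba* and *Fst* fell. *Tgfb1*, *Tgfb3*, *Gdf11* and *Fstl3* were tested without a call, and *Bmp4* was below 1 FPKM in every library and was not tested. A gene was called at an adjusted p under 0.05, from limma on log2(FPKM + 1) with Benjamini-Hochberg adjustment over 10837 tested genes. The 2 higher of 9 tested members stood against 8.78% of all tested genes called higher, and the 3 lower stood against 8.96% called lower. Of the lower members, *Fst* reached 1 FPKM only in WT, so it was tested only through the group where it was higher. With a filter on the mean, *Fst* was not tested and 2 members were lower, where 881 of 10327 tested genes were. Every MSTN-KO library lay above every WT library for 4 tested members and below for 3, where 19.3% and 18.1% of all tested genes did so. The study's own cutoff asks for a log2 fold change past 1 in either direction at a raw p under 0.05. When it was applied to the limma fit used here, and not in the study's own software, 0 members were higher and 0 lower, against 1.21% and 2.3% of all tested genes. The study names no pseudocount, and this count rests on the 1 added here. With a pseudocount of 0.1, *Tgfb2*, *Inhba* and *Fst* passed the cutoff as lower (3 members, against 4.61% of all tested genes) and 0 members passed as higher (against 2.34%). The median log2 fold change of the 9 tested members was -0.10, and that of all tested genes was near 0.

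**Figure D1:**
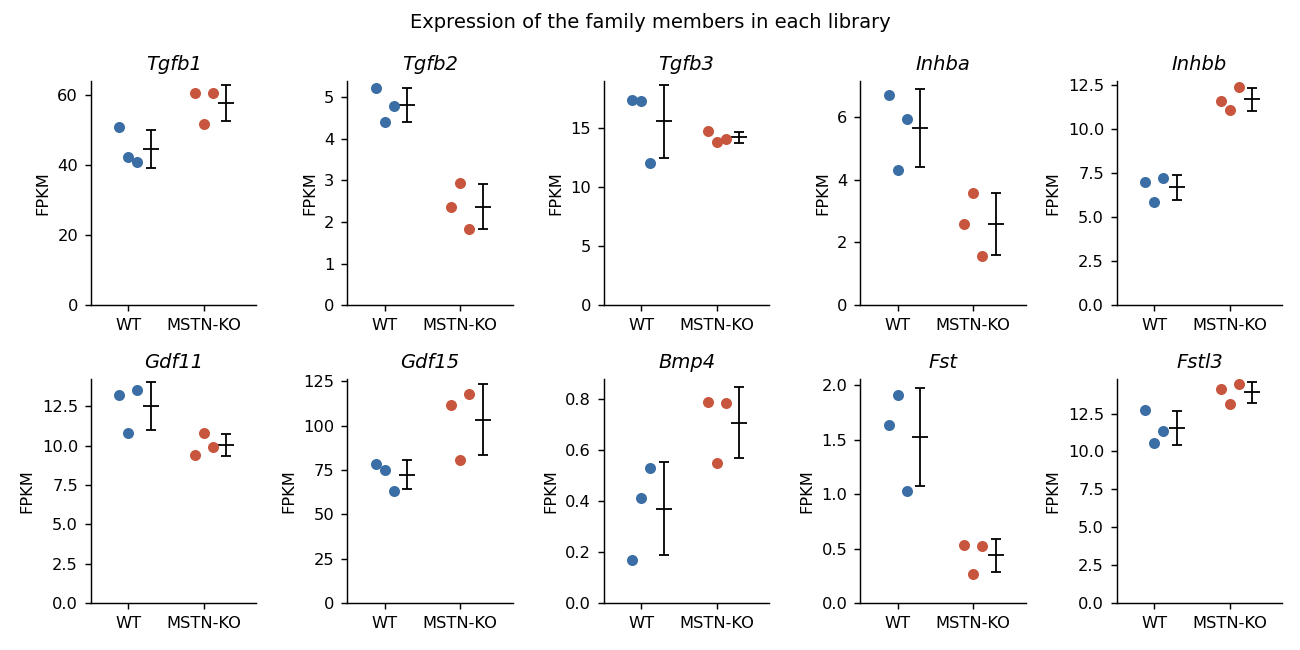
FPKM of the 10 members in each library, with 1 point per library and the mean ± SD (n = 3) beside the points; every vertical axis starts at 0. The groups are apart for 8 of the 10 genes, and they overlap for *Tgfb3* and *Gdf11*.

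The levels spanned from below 1 FPKM to over 100 FPKM. *Gdf15* was the highest member in both groups, followed by *Tgfb1*, and neither range met that of its neighbour. In WT, *Tgfb3*, *Gdf11* and *Fstl3* came next with ranges that overlapped, then *Inhbb*, *Inhba* and *Tgfb2*, whose neighbouring ranges also overlapped, then *Fst* and last *Bmp4*. In MSTN-KO the order changed at the lower end. *Inhbb* came to lie above *Gdf11*, just after *Tgfb3* and *Fstl3*, and *Fst* became the lowest member, below *Bmp4*, with no overlap in either case. The gap between *Fst* and *Bmp4* was narrow, from at most 0.529 FPKM to at least 0.546 FPKM. These 2 values stand for roughly 23.8 and 20.6 fragments, so their order is uncertain. *Inhba* and *Tgfb2* stayed neighbours with overlapping ranges.

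The 3 TGF-β isoform genes encode latent growth factors that signal through TGFBR1 and TGFBR2. *Tgfb1* (ENSMUSG00000002603, chromosome 7, 25687002 to 25705077, in GRCm38) measured 50.9, 42.3 and 41.0 FPKM in WT replicates 1, 2 and 3, with 60.7, 51.8 and 60.8 FPKM for MSTN-KO. The lowest MSTN-KO library stood just above the highest WT library. Its log2 fold change was 0.36 (standard error 0.13, 95% interval 0.077 to 0.65), which did not pass the test (limma, adjusted p = 0.0751). Without WT replicate 1 the adjusted p was 0.0428, and without MSTN-KO replicate 2 it was 0.0457. Leaving out any other library gave adjusted p from 0.174 to 0.249 (limma). With length and GC correction the log2 fold change was 0.25 (limma, adjusted p = 0.0604). With scaling to a sum of 1000000 it was 0.08 (0.595), or 0.34 relative to the median of all genes. The study, in contrast, counts *TGFB1* among the genes downregulated in its RNA-seq of MSTN-KO cells. It also reports lower *TGFB1* by qRT-PCR and describes this as matching its RNA-seq. The FPKM deposited for that RNA-seq are the values given above, higher in every MSTN-KO library. The reason for this difference was not tested. 

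*Tgfb2* (ENSMUSG00000039239, chromosome 1, 186622792 to 186705989) measured 5.22, 4.41 and 4.79 FPKM in WT and 2.36, 2.93 and 1.83 FPKM in MSTN-KO. All 3 MSTN-KO libraries were well below the WT libraries, with WT 2.03 times as high on average. On the log2 scale the difference was -0.80 (standard error 0.17, 95% interval -1.16 to -0.43, limma, adjusted p = 0.00596). The median log2 fold change of the 627 tested genes of chromosome 1 was -0.25, and with each chromosome centred on its own median *Tgfb2* was still lower, at -0.51 (limma, adjusted p = 0.0426). *Tgfb3* (ENSMUSG00000021253, chromosome 12, 86056745 to 86079041) measured 17.4, 17.3 and 12.0 FPKM in WT and 14.7, 13.9 and 14.1 FPKM in MSTN-KO. The groups overlapped, because WT replicate 3 was lower than every MSTN-KO library. Its log2 fold change of -0.10 (95% interval -0.44 to 0.23, limma, adjusted p = 0.677) took the opposite sign, 0.03, after chromosome centring. *Tgfb3* overlaps *Ttll5* on the other strand, and whether reads were counted by strand is not given in the sources used here.

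Since the isoforms' fold changes differed in sign, their shares within a library were compared, which do not depend on the scaling of the library. *Tgfb1* made up 69.3%, 66.1% and 70.9% of the summed isoform FPKM in WT and 78.0%, 75.5% and 79.3% in MSTN-KO, a difference of 8.85 percentage points between group means. *Tgfb2* held 7.10%, 6.88% and 8.29% in WT and 3.03%, 4.27% and 2.38% in MSTN-KO, and *Tgfb3* held 23.8% on average in WT and 19.2% in MSTN-KO. The groups did not overlap for any of the 3 shares (two-sided exact permutation tests, each with p = 0.1, the lowest value possible with 3 against 3). The 3 shares of a library add up to the whole, so these are not separate results. The FPKM of *Tgfb3* itself overlapped between the groups. The summed level of the isoforms was 65.1 ± 7.91 FPKM (SD, n = 3) in WT and 74.3 ± 5.03 FPKM in MSTN-KO, with overlapping groups (exact permutation test, p = 0.2). Their receptors were not called: *Tgfbr1* had 3.09 ± 0.528 FPKM (SD, n = 3) in WT and 2.39 ± 0.742 FPKM in MSTN-KO (limma, adjusted p = 0.324), and *Tgfbr2* had 19.6 ± 3.54 and 15.6 ± 1.26 FPKM (limma, adjusted p = 0.190).

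**Figure D2:**
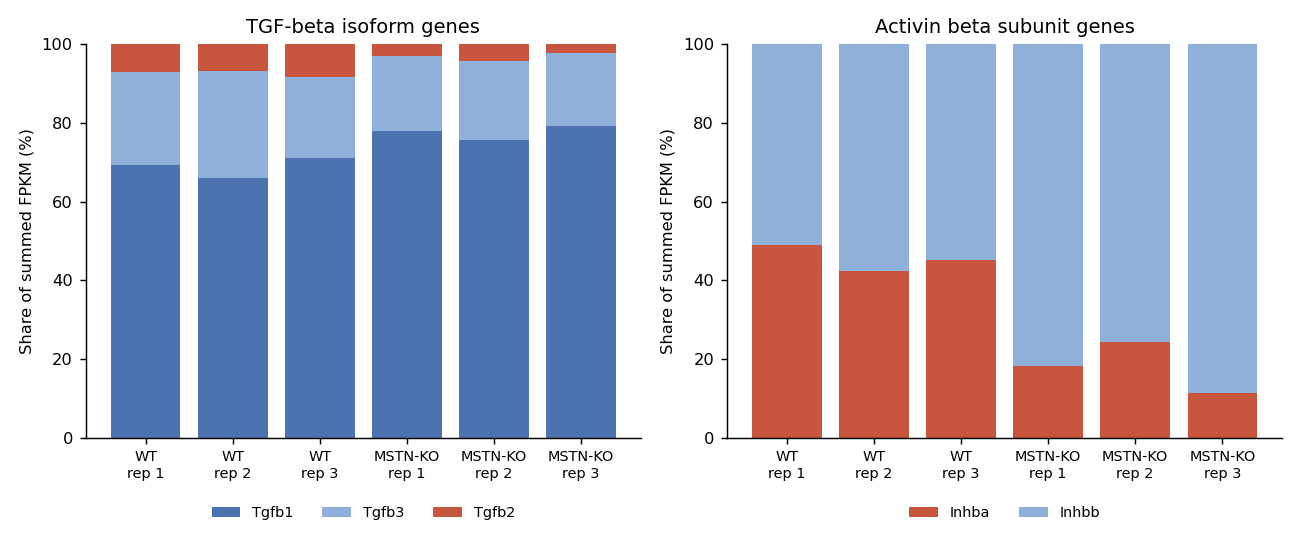
Share of the summed FPKM (%) held by each TGF-β isoform gene (left) and each activin β subunit gene (right), 1 stacked bar per library. *Tgfb1* holds 66.1% to 70.9% in the WT libraries and 75.5% to 79.3% in the MSTN-KO libraries, and *Inhba* holds 42.3% to 49.0% and 11.3% to 24.4%.

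*Inhba* and *Inhbb* encode the βA and βB subunits, whose dimers form activin A, activin B and activin AB. The pair moved in opposite directions. *Inhba* (ENSMUSG00000041324, chromosome 13, 16011851 to 16031621) measured 6.71, 4.30 and 5.93 FPKM in WT and 2.59, 3.57 and 1.58 FPKM in MSTN-KO. The groups were apart, although the lowest WT library and the highest MSTN-KO library were close. *Inhba* fell by 0.91 on the log2 scale (standard error 0.22, 95% interval -1.38 to -0.45, limma, adjusted p = 0.0116). The call was lost without WT replicate 1 (limma, adjusted p = 0.0663) and when genes of all levels were tested (0.0565).

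*Inhbb* (ENSMUSG00000037035, chromosome 1, 119415465 to 119422248) measured 6.99, 5.86 and 7.21 FPKM in WT and 11.6, 11.1 and 12.4 FPKM in MSTN-KO. The libraries within each group lay close together and the groups were far apart, with MSTN-KO 1.75 times as high on average. The log2 fold change was 0.73 (standard error 0.14, 95% interval 0.42 to 1.03, limma, adjusted p = 0.00395). It ran against its chromosome, and relative to the chromosome 1 median it was 0.98. *Inhbb* and *Tgfb2*, both on chromosome 1, thus moved apart.

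*Inhba* held 49.0%, 42.3% and 45.1% of the summed *Inhba* and *Inhbb* FPKM in WT, so the subunit genes were near parity there. It held 18.3%, 24.4% and 11.3% in MSTN-KO. The mean log2 ratio of *Inhba* to *Inhbb* differed by -1.99 between the groups (exact permutation test, p = 0.1, the smallest possible), and by -2.30 to -1.63 when any single library was left out. Since neither gene overlapped between the groups and they moved in opposite directions, their ratio could not overlap. The test of the ratio is thus no separate support. The summed level of both genes was 12.3 ± 1.91 FPKM (SD, n = 3) in WT and 14.3 ± 0.334 FPKM in MSTN-KO (exact permutation test, p = 0.1). *Inha*, the inhibin α subunit gene whose product pairs with either β subunit to form inhibins, fell from 1.45 ± 0.180 to 0.586 ± 0.0655 FPKM (log2 fold change -0.62, limma, adjusted p = 0.0195). It reached 1 FPKM only in WT, was still called when genes of all levels were tested (0.00669), and lost the call after chromosome centring, at -0.34 (0.187). It was the single tested gene of the 25 other ligands listed, of which 11 were in the tables. The activin receptor genes *Acvr1b* (3.87 ± 0.175 FPKM in WT and 3.57 ± 0.299 in MSTN-KO) and *Acvr2a* (1.52 ± 0.121 and 1.69 ± 0.309) were not called (limma, adjusted p = 0.704 and 0.745), and *Acvr2b* was below 1 FPKM in every library.

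The study transfected mimics of 2 miRNAs, miR-335-5p and miR-130b-3p, into C2C12 cells and measured *Tgfb1* and *Fos*. It reports that both mimics lowered the mRNA of both genes, with *Fos* seemingly more affected. Both miRNAs were also higher in MSTN-KO cells by its qRT-PCR. The seeds of these miRNAs (bases 2 to 8, in capitals) were therefore searched in the members' 3′ UTRs. The miRNA sequences are those of RefSeq for GRCm38.p6, at chr16:17124071-17124092 on the minus strand and chr6:30741314-30741336 on the plus strand.

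miR-130b-3p: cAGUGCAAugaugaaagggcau

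miR-335-5p: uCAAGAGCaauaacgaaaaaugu

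The complement of the miR-130b-3p seed, TTGCACT, was found once each in the 3′ UTRs of *Tgfb2*, *Tgfb3*, *Inhba* and *Inhbb*, in the longest protein-coding transcript of GENCODE M21. It was in 11.8% of the 10614 tested genes with a 3′ UTR. The matches are shown in capitals in 29 bases of each transcript, because 2 of the 4 genes fell, 1 rose and 1 was not called.

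*Tgfb2*, bases 1219 to 1225 of 2656: tagattttgacTTGCACTacaaattcaat

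*Tgfb3*, bases 490 to 496 of 1035: ggaatcatatcTTGCACTgcctggaatta

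*Inhba*, bases 1099 to 1105 of 4492: tcgtttactatTTGCACTacgatggtgtt

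*Inhbb*, bases 1386 to 1392 of 1857: gctttcaatgtTTGCACTgatctagttgc

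The 135 bases of the *Tgfb1* 3′ UTR held no TTGCACT, and GCTCTTG, the complement of the miR-335-5p seed, was in none of the members' 3′ UTRs, against 14.1% of the same genes. Among the members with TTGCACT, *Inhba* fell and *Inhbb* rose. The 3′ UTRs were 1035 to 4492 bases long in the members with this match and 135 to 2811 bases in those without. The shares of all genes were not matched for this length. A match is a description of these letters and no evidence of binding, and no miRNA library was analysed here. Other miRNAs of the study, among them miR-301b-3p with the most targets in its network, were not searched.

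*Gdf11* encodes the ligand closest in sequence to myostatin. *Gdf11* (ENSMUSG00000025352, chromosome 10, 128882295 to 128891718) measured 13.2, 10.8 and 13.5 FPKM in WT and 9.43, 10.8 and 9.91 FPKM in MSTN-KO. The groups touched at WT replicate 2 and MSTN-KO replicate 2, which both had 10.8 FPKM. Its log2 fold change of -0.29 (95% interval -0.59 to 0.02) was not called (limma, adjusted p = 0.180). With each library scaled to a sum of 1000000, which lowered the median of all genes by 0.26, its adjusted p was 0.0228, while relative to that median the log2 fold change was -0.30.

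*Gdf15* encodes a distant family member that is secreted in response to cell stress and signals through GFRAL in the brain. *Gdf15* (ENSMUSG00000038508, chromosome 8, 70629393 to 70632456) measured 78.6, 75.3 and 63.2 FPKM in WT and 112, 80.4 and 118 FPKM in MSTN-KO. MSTN-KO replicates 1 and 3 were far above WT, while replicate 2 exceeded the highest WT library only narrowly. The log2 fold change was 0.50 (standard error 0.16, 95% interval 0.16 to 0.83, limma, adjusted p = 0.0434). Of the 5 calls, this one was lost in the most alternatives, 12. It was lost without WT replicate 1, 2 or 3 (limma, adjusted p = 0.0692, 0.0940 and 0.138), without MSTN-KO replicate 1 or 3 (0.150 and 0.160) and after chromosome centring, where the log2 fold change was 0.43 (0.0962), and without MSTN-KO replicate 2 the adjusted p was 0.00520.

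*Bmp4* encodes a BMP ligand that acts through BMPR1A and BMPR2. *Bmp4* (ENSMUSG00000021835, chromosome 14, 46383520 to 46390669) measured 0.169, 0.413 and 0.527 FPKM in WT and 0.787, 0.546 and 0.784 FPKM in MSTN-KO. The groups did not overlap, but these values stand for roughly 6.27 to 29.2 fragments per library. When genes of all levels were tested, its log2 fold change of 0.32 (standard error 0.11) was not called (limma, adjusted p = 0.109). Both receptor genes fell: *Bmpr1a* from 10.1 ± 2.68 to 5.16 ± 1.93 FPKM (SD, n = 3, limma, adjusted p = 0.0216) and *Bmpr2* from 2.95 ± 0.317 to 1.49 ± 0.773 FPKM (adjusted p = 0.0313). They lie on chromosomes 14 and 1, which were lower as a whole, and both calls were lost after chromosome centring (limma, adjusted p = 0.139 and 0.158) and when genes of all levels were tested (0.0915 and 0.0791).

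The antagonist genes had fold changes of opposite sign. *Fst* (ENSMUSG00000021765, chromosome 13, 114452290 to 114458951) measured 1.64, 1.91 and 1.03 FPKM in WT and 0.529, 0.262 and 0.519 FPKM in MSTN-KO. The groups did not overlap, and WT averaged 3.49 times the MSTN-KO level. *Fst* fell by 0.80 on the scale of log2(FPKM + 1) (standard error 0.19, 95% interval -1.21 to -0.39, limma, adjusted p = 0.0115), a scale that understates changes at such low levels. *Fst* was tested only because WT reached 1 FPKM, and it was not tested under a filter on the mean. When genes of all levels were tested it was still lower (limma, adjusted p = 0.0177), and with a pseudocount of 0.1 in place of 1 the log2 fold change was -1.60. The call was lost without WT replicate 1 (limma, adjusted p = 0.0508), without WT replicate 2 (0.0614) and after chromosome centring, which left a log2 fold change of -0.55 (0.0876). The median of the 410 tested genes of chromosome 13 was -0.34. WT replicate 3, with the lowest sum of differentiated muscle markers in WT, had the lowest WT levels of *Fst*, *Tgfb1*, *Tgfb3* and *Gdf15*. It had the highest WT levels of *Inhbb*, *Gdf11* and *Bmp4*, and lay between the other WT libraries for *Tgfb2*, *Inhba* and *Fstl3*. MSTN-KO replicates 1 and 3, with the lowest and highest marker sums of that group, had nearly equal *Fst* levels, 0.529 and 0.519 FPKM. A link of these levels to the markers was not tested. Without WT replicate 3 the adjusted p of *Fst* was 0.00633.

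*Fstl3* (ENSMUSG00000020325, chromosome 10, 79777272 to 79782630) measured 12.8, 10.6 and 11.3 FPKM in WT and 14.1, 13.1 and 14.5 FPKM in MSTN-KO. All MSTN-KO libraries were higher, by a small margin. Its log2 fold change of 0.25 (95% interval -0.04 to 0.54) was not called (limma, adjusted p = 0.220), and *Fstl3* overlaps *Prss57* on the other strand. Within a library, *Fstl3* was 7.80, 5.55 and 11.04 times as high as *Fst* in WT and 26.7, 50.1 and 27.8 times as high in MSTN-KO (exact permutation test, p = 0.1). This p-value too followed from the values of the 2 genes, which were apart in opposite directions. *Fst* was also set against *Inhba*, the gene of a ligand it binds. Their log2 ratio averaged -1.91 ± 0.689 (SD, n = 3) in WT and -2.56 ± 1.11 in MSTN-KO with overlapping groups (exact permutation test, p = 0.5), so a shift of one relative to the other was not detectable with 3 libraries a group.

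**Figure D3:**
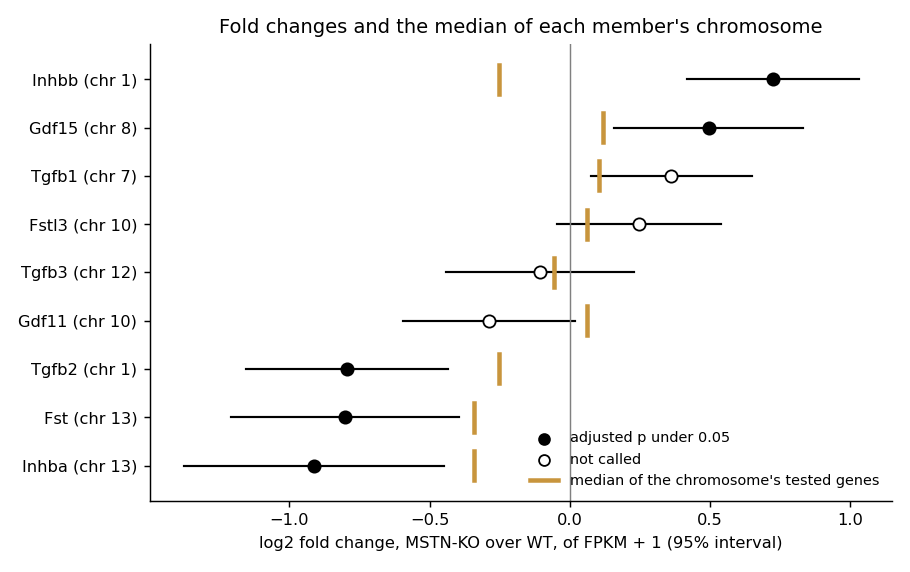
Log2 fold change (MSTN-KO over WT, of FPKM + 1) of the 9 tested members with 95% intervals from limma, filled where the adjusted p was under 0.05. Vertical bars mark the median of all tested genes on the same chromosome, from -0.34 for chromosome 13 to 0.12 for chromosome 8. *Inhbb* and *Gdf11* lie on the opposite side of 0 from their chromosome's median.

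Members on chromosomes 1 and 13 were set against their neighbours in that plot because these chromosomes were lower as a whole. On chromosome 13, 82.0% of the tested genes had a log2 fold change below 0, and on chromosome 1, 79.4%. Chromosome 14, which holds *Bmp4*, was lower too, with a median of -0.29 over 367 tested genes and 82.0% below 0. The medians for the chromosomes of *Tgfb1*, *Tgfb3*, *Gdf11* with *Fstl3*, and *Gdf15* were 0.10, -0.06, 0.06 and 0.12. *Inhba* remained lower after centring, at -0.66 (limma, adjusted p = 0.0442), and *Inhbb* remained higher, at 1.01 (adjusted p = 0.000674). What sets these chromosome medians was not tested.

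The other genes of the pathway were read from the same fit, by list, and each list's counts are to be read against the 8.78% of all tested genes called higher and the 8.96% called lower. Of the 22 genes called in these lists, 7 lost the call after chromosome centring (*Inha*, *Ltbp2*, *Bmpr1a*, *Bmpr2*, *Smad2*, *Smad5* and *Acta2*), and 5 (*Ltbp2*, *Bmpr1a*, *Bmpr2*, *Smad2* and *Acta2*) lost it when genes of all levels were tested. Of 8 tested extracellular antagonists other than *Fst* and *Fstl3*, 0 rose and 3 fell, with a list median of -0.28. The BMP antagonist noggin (*Nog*) fell from 2.91 ± 0.418 to 0.735 ± 0.295 FPKM (log2 fold change -1.18, limma, adjusted p = 0.000818), and chordin (*Chrd*) fell from 3.15 ± 0.768 to 0.725 ± 0.237 FPKM (-1.26, adjusted p = 0.000641). *Nbl1*, another BMP antagonist gene, fell from 113 ± 17.8 to 62.5 ± 6.15 FPKM (-0.84, adjusted p = 0.00142). *Nog* and *Chrd* reached 1 FPKM only in WT, and both were still lower when genes of all levels were tested (limma, adjusted p = 0.00571 and 0.00603). The abundant *Fstl1* was not called, at 119 ± 5.55 FPKM in WT and 144 ± 12.4 FPKM in MSTN-KO (adjusted p = 0.149). *Fstl1* was named after its values were seen.

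Latent TGF-β is stored in the matrix and freed by other proteins, and of 10 tested genes for latency and activation 3 rose and 2 fell (list median 0.04). Fibrillin 1 (*Fbn1*), a microfibril protein to which latent complexes attach, rose from 18.2 ± 1.21 to 30.5 ± 2.98 FPKM (log2 fold change 0.71, limma, adjusted p = 0.00288). Thrombospondin 1 (*Thbs1*), an activator of latent TGF-β, rose from 128 ± 17.6 to 198 ± 30.4 FPKM (0.62, adjusted p = 0.0134), and the latent TGF-β binding protein gene *Ltbp3* rose from 47.0 ± 8.10 to 70.7 ± 5.85 FPKM (0.59, adjusted p = 0.0132). *Ltbp2* fell from 29.1 ± 4.31 to 18.3 ± 3.94 FPKM (-0.65, adjusted p = 0.0160). *Itgb6*, an integrin gene near 1 FPKM that was named after its values were seen, fell by 0.55 (adjusted p = 0.0315).

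Of 10 tested receptor and co-receptor genes, 1 rose and 2 fell (median -0.18). The 2 were *Bmpr1a* and *Bmpr2*. The 1 was *Tgfbr3*, the gene of betaglycan, a co-receptor that presents TGF-β2 and inhibin. It was at 0.170 ± 0.0697 FPKM in WT and 0.969 ± 0.142 FPKM in MSTN-KO (log2 fold change 0.75, limma, adjusted p = 0.00921) and was named after its values were seen, since its mean was under 1 FPKM. It reached 1 FPKM only in MSTN-KO, and *Itgb6* only in WT. Of 6 SMAD genes, 0 rose and 2 fell (median -0.34). *Smad2* went from 16.3 ± 0.939 to 11.1 ± 1.80 FPKM (-0.52, adjusted p = 0.0257) and *Smad5*, a BMP SMAD gene on chromosome 13, from 14.3 ± 0.488 to 8.55 ± 1.42 FPKM (-0.69, adjusted p = 0.00674). Of 9 tested intracellular inhibitors, *Tgif2*, a transcriptional repressor that binds SMADs, fell from 6.55 ± 0.382 to 3.03 ± 0.370 FPKM (-0.91, limma, adjusted p = 0.00133), 0 rose, and the median was -0.29.

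**Figure D4:**
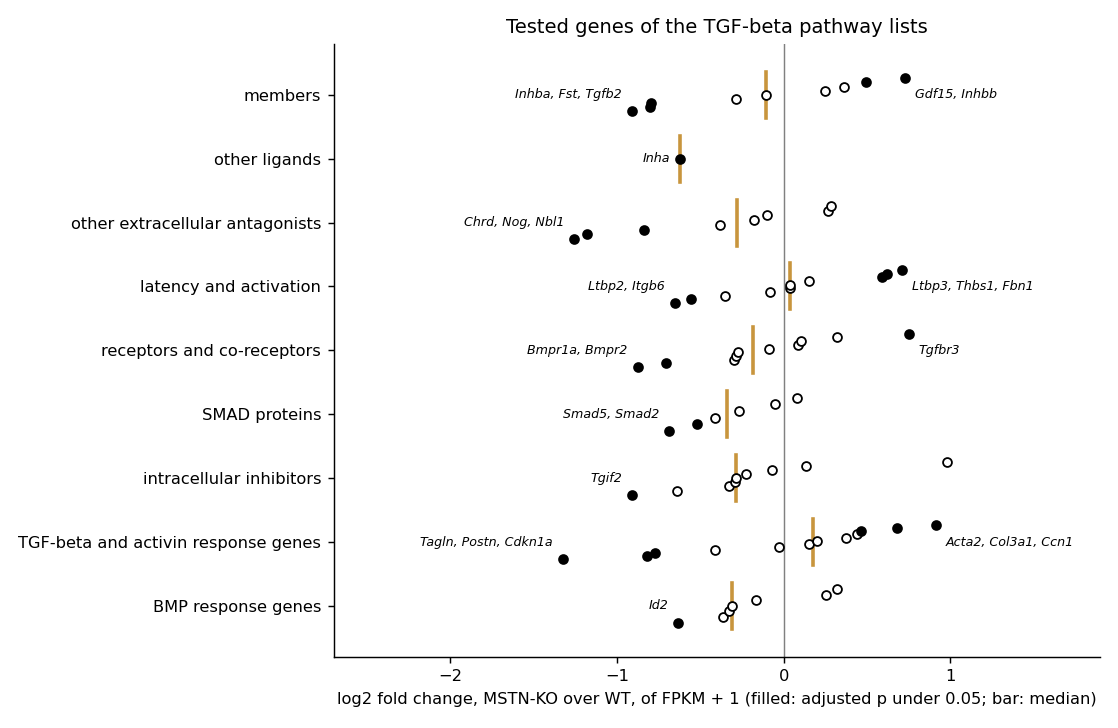
Log2 fold change (MSTN-KO over WT, of FPKM + 1) of each tested gene of the members and 8 further pathway lists, 1 circle per gene, filled and named where the adjusted p was under 0.05, with a bar at each list's median. The 3 called extracellular antagonists lie below 0, and the response genes of TGF-β and activin have called genes on both sides.

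Genes that TGF-β and activin are known to induce went both ways. Of 12 tested, 3 rose and 3 fell, with a median of 0.17. *Ccn1*, a matricellular protein gene, rose from 166 ± 23.1 to 314 ± 32.8 FPKM (log2 fold change 0.91, limma, adjusted p = 0.000741), *Col3a1*, a fibrillar collagen gene, rose by 0.68 (adjusted p = 0.00765), and the smooth muscle actin gene *Acta2* rose by 0.46 (adjusted p = 0.0372). The actin-binding protein gene *Tagln* fell from 172 ± 21.6 to 68.3 ± 9.72 FPKM (-1.33, limma, adjusted p = 3.8e-05). *Postn*, which encodes the matrix protein periostin, fell by 0.82 (adjusted p = 0.0150), and the cell cycle inhibitor gene *Cdkn1a*, also induced as myoblasts differentiate, fell by 0.77 (adjusted p = 0.00364). Of 7 tested BMP response genes, *Id2*, an inhibitor of basic helix-loop-helix factors, fell from 60.1 ± 1.04 to 38.7 ± 6.32 FPKM (-0.63, limma, adjusted p = 0.00663), 0 rose, and the median was -0.31.

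**Figure D5:**
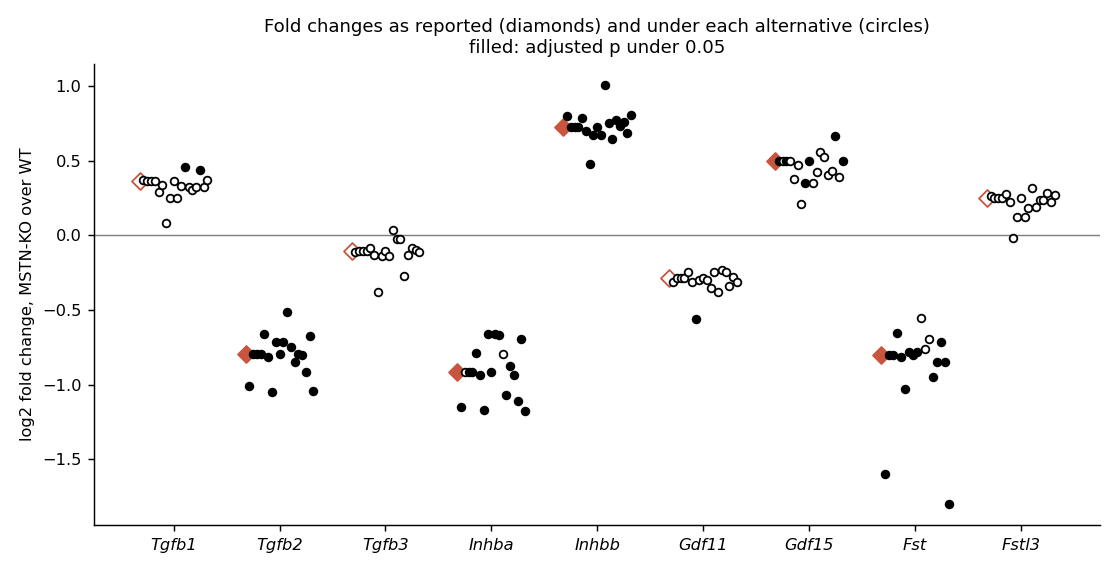
Log2 fold change (MSTN-KO over WT) of the 9 tested members as reported (diamonds) and under each alternative way of processing the values (circles, in the same order for each gene), filled where the adjusted p was under 0.05. *Inhbb* and *Tgfb2* are filled throughout, with ranges of 0.48 to 1.01 and -1.05 to -0.51, while *Gdf15* is open in 12 of its alternatives.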

How the data were processed

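The RNA-seq libraries, 3 of WT and 3 of MSTN-KO cells, were grouped by the genotype label. The authors computed FPKM per gene and deposited these values, 1 library per file, without pooling replicates. The submitters' processing notes name Bowtie 0.12.2 and mm8 without a role. The annotation, strand setting and gene filter are not given in the sources used here. FPKM is relative to the library, so a few abundant genes lower all others.

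The 10 members, the pathway lists and the markers were chosen with earlier results of these data known. Symbols and positions came from GENCODE M21 (GRCm38), which named 14445 of 14548 identifiers, and miRNA sequences from RefSeq (GRCm38.p6). Coordinates are of GRCm38 and not of the build in the processing notes. No fragment counts were used. Depth was estimated from single-transcript genes under 0.3 FPKM, as the median of FPKM times length in kb. Only products between 0.03 and 0.075 were kept, each taken as a single fragment. This fixed window bounds the estimate, so depth is approximate, and fragments given from it cover no counting error.

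Genes reaching 1 FPKM in any library (10837) were tested on log2(FPKM + 1) by limma 3.58.1 (R 4.3.3, eBayes with trend, group only), with Benjamini-Hochberg adjustment over all of them at 0.05. The script was tested on simulated data. Shares and ratios within a library were compared by two-sided exact permutation tests, which cannot go below 0.1. They were 11 quantities, left unadjusted since none can pass 0.05. All members were named. Of each other list, up to 3 largest rises and falls were named among called genes without overlap between groups and with a mean of at least 1 FPKM, with the receptors of members beside them. Exceptions are marked, and 1 gene of these lists is not reported here.

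Alternatives were pseudocounts of 0.1 and 0.01 (the latter, the cutoff with either of them and the pathway genes without the filter or with centring were added after the values were seen), no filter, a filter on the mean, no trend, quantile normalization, scaling to a sum of 1000000 or to the percentile 75, a smooth correction (mgcv 1.9.3) for length and GC content, a replicate block alone and together with it, chromosome centring, the study's cutoff and leaving out each library. Python 3.11.15 ran the other steps, with numpy 2.4.6 for permutations and tables, pandas 2.3.3 for tables and matplotlib 3.10.9 for figures.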

Additional observations from a re-analysis of the deposited data

How the results depend on the processing

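Of 161 pairs of a member's fold change and an alternative, 139 kept the direction and the side of the threshold, 17 kept the direction and lost the call, 3 gained one and 2 changed sign. *Tgfb2* and *Inhbb* were called in every alternative fit. The number of members called higher went from 2 to 1, with *Gdf15* lost, under no filter, no trend, quantile normalization, scaling to the percentile 75 or to a sum of 1000000, the replicate block with length and GC correction, and chromosome centring, and to 0 under the study's cutoff with a pseudocount of 1, 0.1 or 0.01. It was 1 to 3 when a library was left out. The number called lower was 0 under the study's cutoff with a pseudocount of 1 but 3 with 0.1 or 0.01 (added after the values were seen), 2 with no filter, the filter on the mean or chromosome centring, 4 with scaling to a sum of 1000000, 3 in the other alternatives, and 1 to 3 when a library was left out (1 without WT replicate 1). *Tgfb3* changed sign to 0.034 with chromosome centring, and *Fstl3* to -0.017 with scaling to a sum of 1000000, where it was 0.24 relative to the median of all genes. The log2 ratio of *Fst* to *Inhba* went from a difference of -0.64 to 0.11 with a pseudocount of 1, and lay between -1.12 and -0.04 when a library was left out. The *Tgfb1* share differed by 7.50 to 9.93 percentage points, and the log2 ratio of *Inhba* to *Inhbb* by -2.30 to -1.63, when a library was left out. With length and GC correction they differed by 7.44 percentage points and -1.59. The called members then had log2 fold changes of -0.71 (*Tgfb2*), -0.66 (*Inhba*), -0.78 (*Fst*), 0.68 (*Inhbb*) and 0.35 (*Gdf15*). Transcript GC content was 57.1% to 62.5% in the 4 tested members with positive fold changes and 41.4% to 53.0% in the 5 with negative ones. Its part in these changes was not tested beyond this correction.

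Over all genes, 952 higher and 971 lower calls became 350 and 2367 with scaling to a sum of 1000000, so 1 scaling sets the balance. Without WT replicate 2 there were 419 and 611, without WT replicate 1 there were 770 and 650, without WT replicate 3 there were 600 and 806, without MSTN-KO replicate 1 there were 488 and 677, without MSTN-KO replicate 3 there were 588 and 724, and without MSTN-KO replicate 2 there were 1175 and 1233. Deviations from the group means correlated between same-numbered libraries with r of -0.02, -0.13 and -0.14, and between the others with r of -0.07 to 0.16. No pairing by replicate number was thus seen. Such deviations are constrained by the means of 3 libraries and cannot settle how the libraries were prepared. With the replicate block the members called were 2 higher and 3 lower, as without it, of 939 higher and 1001 lower genes, and with length and GC correction added *Gdf15* had an adjusted p of 0.0511 (limma). Depth limits *Bmp4* and *Fst* most, at roughly 6.27 to 29.2 and 13.6 to 109 fragments per library by the approximate depth.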
